A study of Mus musculus with 6 samples.

Results

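The genes described here are 47 mouse genes of cholesterol and fatty acid metabolism, matched by symbol to the table of counts, in which all 47 were present among 52997 genes. They comprise 18 enzymes of sterol synthesis, 7 regulators and transporters of sterols, 6 enzymes that activate fatty acids, 9 enzymes that make, lengthen or desaturate fatty acids, and 7 enzymes of mitochondrial fatty acid oxidation. RNA was sequenced from CD4+ T cells, taken from pooled lymph nodes, of 3 infant mice (age 10 days) and 3 adult mice (age 7 weeks). All 6 mice carried the Foxp3-GFP strain label on C57BL/6, a reporter background in which cells that express the regulatory T cell factor Foxp3 fluoresce. The samples are titled Tconv, the series describes the cells as naive, and each library came from 1 mouse and from 1000 cells sorted 2 times. The labels name no gate beyond the cell type and give no treatment.

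Sterols are built from acetyl-CoA through mevalonate, squalene and lanosterol, and the transcription factor made from Srebf2 turns on most enzymes of that route when sterol in the endoplasmic reticulum is low. The liver X receptors do the opposite job and raise the exporters of cholesterol when sterol is abundant. Fatty acids must first be joined to coenzyme A before they are lengthened, desaturated, stored or burned. To be burned they are passed into mitochondria by the carnitine palmitoyltransferases and are then shortened in cycles that begin with an acyl-CoA dehydrogenase fitted to the length of the chain. Naive T cells rely largely on oxidation for energy, whereas T cells that start to divide make sterols and fatty acids for new membrane.

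Of the 47 genes, 43 had enough counts to be tested for a difference between infant and adult cells with edgeR's quasi-likelihood test, at an adjusted p under 0.05 over all 11681 genes tested. Acsbg1 and Cpt1a were higher in infant cells and Acadl was lower, and the other 40 tested members did not pass. Over all genes tested, 1.52% were called higher and 2.11% lower in infant cells, 3.64% in all. In a group of 43 genes those shares come to about 1 gene in each direction, so the count of calls is close to the background. The log2 fold change, infant over adult, was positive for 15 and negative for 28 of the tested members. That is 65.1% negative with a median of -0.16, against 50.3% negative and a median of -0.0017 over all genes tested. All 3 infant libraries lay above all 3 adult libraries for 6 members and below them for 9, against 11.2% and 11.6% of all genes tested. Summed over all members, the level was 2728 ± 29.6 CPM (the count scaled to a common library total) in infant cells and 2761 ± 114 CPM in adult cells (SD, n = 3 each), so that the total overlapped between the ages while single genes moved in opposite directions.

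**Figure D1:**
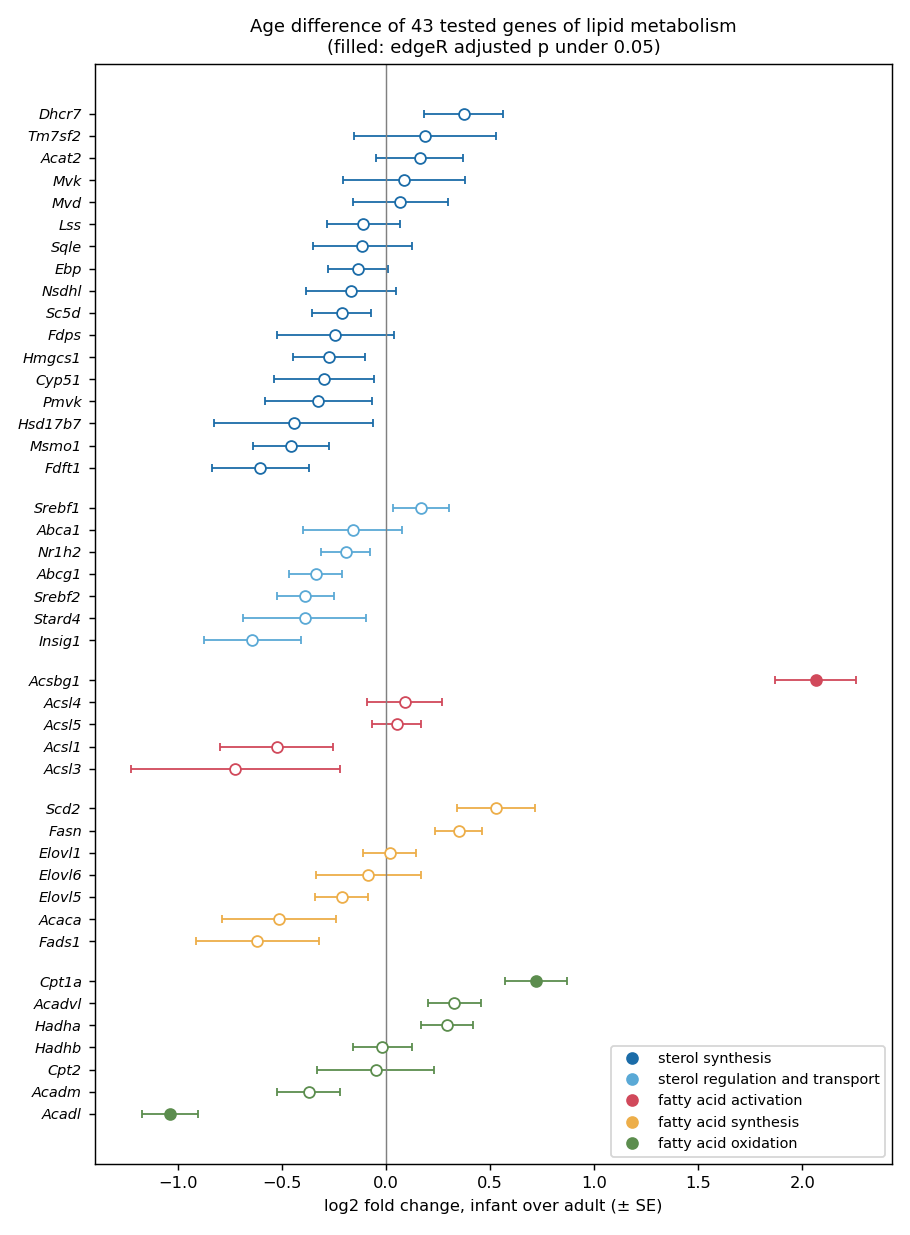
Log2 fold change, infant over adult, of the 43 tested genes, with bars of 1 SE, ordered within each class of role from the most positive to the most negative. Filled points passed the edgeR threshold: Acsbg1 at 2.06 and Cpt1a at 0.72 lie right of 0, and Acadl at -1.04 lies left of it, while the open points of the other 40 genes did not pass.

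The libraries held 3421253 to 4887371 counts each. Adult replicate 2 stood apart: 36373 genes had a count there, whereas each of the remaining 5 libraries had 17992 to 21840 such genes. Its density over the exons of 10996 protein-coding genes too low to test was 1.85 counts per kb, against 0.186 to 0.349. For some of the class medians and differences described below, the value without this library is given too. It is not given for every gene that depends on this library. None of 10 T cell markers passed the test, in either direction, and the receptor chain gene Cd3e had 568 to 636 CPM. The 8 markers of naive cells summed to 5615 to 5722 CPM in infant libraries and 5466 to 6477 CPM in adult libraries, with overlap. Of 10 genes of cycling cells 8 were tested and 4 were higher in infant cells, with a summed level of 82.1 to 182 CPM in infant libraries and 10.7 to 45.2 CPM in adult libraries. The 4 markers of regulatory T cells did not pass and summed to 21.5 to 26.8 CPM in infant libraries and 12.6 to 32.7 CPM in adult libraries. The 8 B cell markers summed to 670 to 801 CPM in infant libraries and 709 to 830 CPM in adult libraries, with no call. Nearly all of that sum was Ighm, the constant region of immunoglobulin M, while Cd79a, a chain of the B cell receptor, had 4.60 to 6.04 CPM in infant libraries and 6.25 to 6.79 CPM in adult libraries, and Cd22 and Blk were at 0 in every library but adult replicate 2. The 8 markers of natural killer and gamma-delta T cells did not overlap between the ages, at a sum of 11.9 to 16.9 CPM in infant libraries and 20.5 to 37.2 CPM in adult libraries. Of the pair tested, Klrd1, a natural killer receptor chain, was lower in infant cells (-1.33 ± 0.31, edgeR adjusted p = 0.0255). The other 6 were too low to test, and Ncr1 was at 0 in all 6 libraries. Klrb1c and Nkg7 averaged 0 and 0.0698 CPM in infant and 1.85 and 1.28 CPM in adult cells, mostly through adult replicate 2. Gzma, Tcrg-C1 and Sox13 averaged 0.875, 1.18 and 0.704 CPM in infant and 0.261, 0.270 and 0.616 CPM in adult cells. The marker lists of CD8 T, myeloid and dendritic, erythroid, and stromal and endothelial cells had no call. The part of cycling or other cells in the differences below was not tested. In RNA of whole sorted populations, fewer cells that express a gene and less of its RNA per cell cannot be told apart.

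Activation of fatty acids was the class with the widest range of differences. Acsbg1 encodes the bubblegum acyl-CoA synthetase, which joins long and very long chain fatty acids to coenzyme A. It had 77.1, 80.8 and 57.7 CPM in the infant libraries and 16.5, 15.3 and 19.4 CPM in the adult libraries. The lowest infant library was well above the highest adult one. The mean was 71.9 ± 12.4 CPM in infant cells and 17.1 ± 2.12 CPM in adult cells (SD, n = 3 each), a fold change of 4.18. On the log2 scale the difference was 2.06 ± 0.19 (SE; 95% interval 1.65 to 2.48; edgeR adjusted p = 3.50e-05). It was called with any single library left out, at 1.97 to 2.20 and an adjusted p of at most 0.00166. The gene lies on the minus strand of chromosome 9 from 54604877 to 54661870 in GRCm38, and its exons overlap no other annotated gene.

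The long chain acyl-CoA synthetases of the Acsl family catalyse the same reaction and did not pass. Acsl5, the member of the class with the highest level per kb of exon (46.2 RPKM, the mean of the 6 libraries), had 234, 210 and 241 CPM in infant cells and 229, 190 and 242 CPM in adult cells. Its groups overlapped, and the log2 fold change was 0.051 ± 0.12 (95% interval -0.20 to 0.30; edgeR adjusted p = 0.881). Acsl5 shares exon bases with Zdhhc6 on the other strand, and the library preparation does not mark strand. Acsl4, which prefers arachidonate, was at 0.089 ± 0.18. Acsl1 was at -0.53 ± 0.27 and Acsl3 at -0.73 ± 0.50 (edgeR adjusted p = 0.350 and 0.513), with all infant libraries below all adult ones for Acsl1 and an overlap for Acsl3. Without adult replicate 2 Acsl1 was at -0.30. Acsl3 shares exon bases with Utp14b on the same strand. Acsl6 was not tested: it had 29 counts in adult replicate 2, or 2.93 counts per kb, and none in the other 5 libraries. The class thus had 1 gene higher, none lower and 4 not past the threshold among 5 tested, with a median of 0.051 that was -0.043 without adult replicate 2. Its summed level was 344 to 364 CPM in infant libraries and 277 to 318 CPM in adult libraries, without overlap.

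Within each library, the share of the 6 synthetases' summed RPKM (CPM per kb of exon, which lets levels of different genes be set side by side) was compared. Acsbg1 made up 26.4 ± 4.21% of the sum in infant cells and 7.98 ± 0.384% in adult cells. Acsl5 made up 62.5 ± 4.85% of it in infant cells and 76.2 ± 3.22% in adult cells. Acsl4 held 8.47 ± 0.546% in infant cells and 10.1 ± 1.21% in adult cells. Acsl5 was thus the most abundant synthetase transcript at both ages, and Acsbg1 held a larger share than Acsl4 in every infant library and a smaller one in every adult library. With 3 libraries against 3 an exact permutation test of such a share cannot reach a p under 0.10, so these shares are given as a description.

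**Figure D2:**
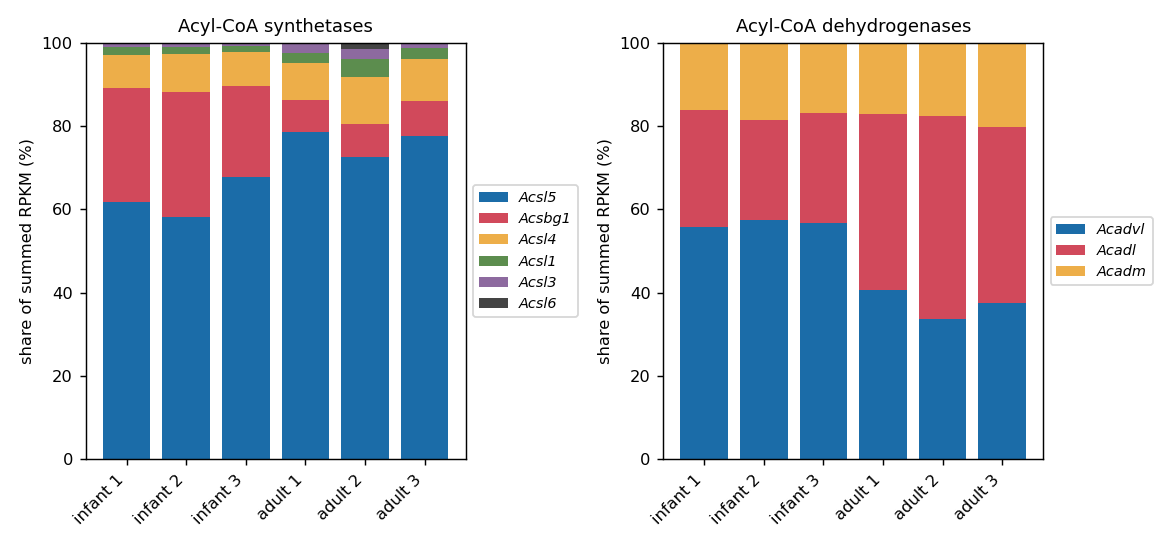
Share of summed RPKM (%) held by each of the 6 acyl-CoA synthetases (left) and each of the 3 acyl-CoA dehydrogenases (right), as stacked bars per library. The Acsbg1 band averages 26.4% in infant and 7.98% in adult libraries, and the Acadl band 26.1% in infant and 44.5% in adult libraries.

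Oxidation of fatty acids held the other 2 called members, which moved in opposite directions. Cpt1a encodes the carnitine palmitoyltransferase of the outer mitochondrial membrane, the step that controls the entry of long chain fatty acids. It had 116, 118 and 90.8 CPM in infant cells and 62.1, 59.7 and 75.0 CPM in adult cells, without overlap. The mean was 108 ± 15 CPM in infant cells and 65.6 ± 8.25 CPM in adult cells (SD, n = 3 each), a fold change of 1.65. The log2 fold change was 0.72 ± 0.15 (95% interval 0.40 to 1.04; edgeR adjusted p = 0.0147). The gene lies on the plus strand of chromosome 19 from 3322334 to 3385733 in GRCm38. Its direction held with any single library left out (0.66 to 0.83). It no longer passed without infant replicate 1 (adjusted p = 0.0833), without infant replicate 2 (0.120) or without adult replicate 1 (0.0896). Cpt2, which encodes the partner enzyme of the inner membrane, had a log2 fold change of -0.051 ± 0.28 (edgeR adjusted p = 0.956).

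Acadl encodes the long chain acyl-CoA dehydrogenase, which opens the cycle of oxidation for long and branched chains. It had 49.6, 43.8 and 48.5 CPM in infant cells and 91.4, 101 and 99.1 CPM in adult cells. Every infant library was close to the others of its group and far below every adult library. The mean was 47.3 ± 3.11 CPM in infant cells and 97.3 ± 5.26 CPM in adult cells (SD, n = 3 each), and the level was 2.05-fold higher in adult cells. The log2 fold change was -1.04 ± 0.14 (95% interval -1.33 to -0.75; edgeR adjusted p = 7.05e-04), and the gene was called with any single library left out, at -1.08 to -0.99. The gene lies on the minus strand of chromosome 1 from 66830839 to 66863277 in GRCm38.

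The other dehydrogenases of the cycle differ from Acadl in the chains they take. Acadvl, the very long chain enzyme and the most abundant transcript of the class per kb (46.0 RPKM), had 132, 140 and 140 CPM in infant cells and 117, 93.5 and 118 CPM in adult cells. Its groups did not overlap, but the log2 fold change of 0.33 ± 0.13 did not pass (edgeR adjusted p = 0.192). Acadvl shares exon bases with Dvl2 on the other strand. Acadm, the medium chain enzyme, was at -0.37 ± 0.15 (edgeR adjusted p = 0.213), also with no overlap, and at -0.24 without adult replicate 3. The ratio of Acadl to Acadvl in RPKM was 0.502, 0.419 and 0.464 in the infant libraries and 1.04, 1.45 and 1.13 in the adult libraries. Per kb of exon, Acadvl was thus the higher of the pair in every infant library and Acadl in every adult library. The order in adult libraries depends on the exon lengths used, 2005 bases for Acadl and 2686 for Acadvl. In CPM, Acadvl was above Acadl in adult replicate 1 (117 against 91.4) and adult replicate 3 (118 against 99.1) too. Of the summed RPKM of the 3 dehydrogenases, Acadl held 26.1 ± 2.01% in infant cells and 44.5 ± 3.75% in adult cells, Acadvl held 56.7 ± 0.786% in infant cells and 37.2 ± 3.49% in adult cells, and Acadm held 17.2 ± 1.25% in infant cells and 18.3 ± 1.65% in adult cells.

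Hadha and Hadhb encode the alpha and beta subunits of the mitochondrial trifunctional protein, which carries out the later steps for long chains. The genes stand head to head on chromosome 5, with start sites 273 bases apart. Hadha was at 0.29 ± 0.13 (edgeR adjusted p = 0.247; 0.19 without adult replicate 2), with the groups apart, and Hadhb at -0.018 ± 0.14 (edgeR adjusted p = 0.968), with the groups overlapping. Over the 7 oxidation genes, all tested, 1 was higher, 1 lower and 5 did not pass, and the median of -0.018 was 0.19 without adult replicate 2. The summed level was 656 ± 10.6 CPM in infant cells and 615 ± 54.5 CPM in adult cells.

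**Figure D3:**
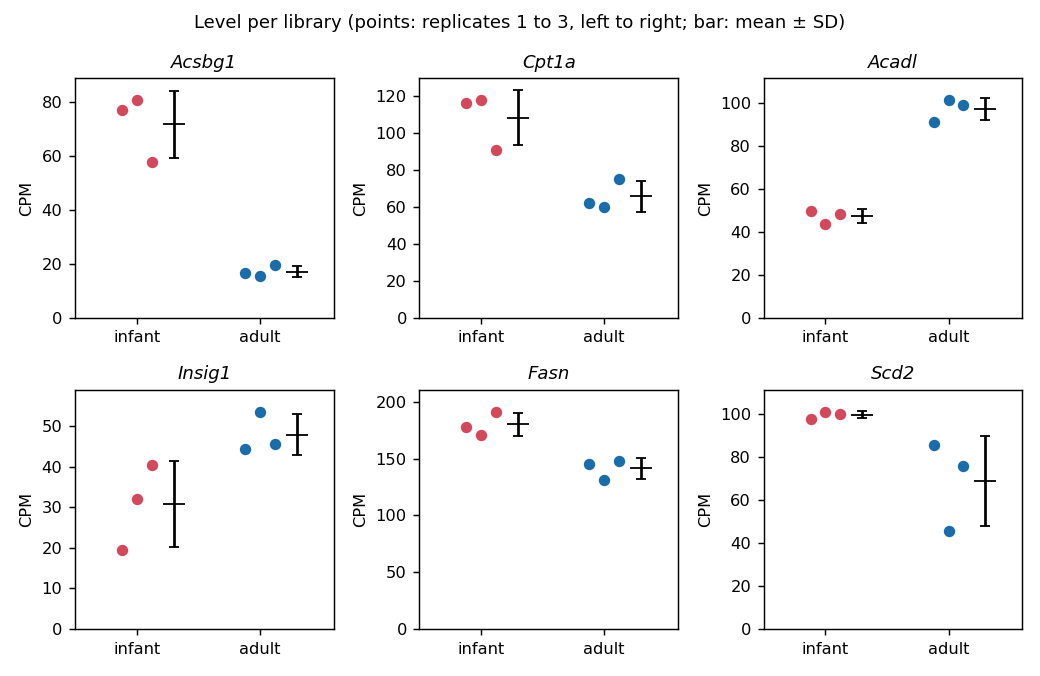
CPM per library of 6 genes, with infant libraries at the left and adult libraries at the right of each panel, points for replicates 1 to 3 from left to right, and the mean with 1 SD beside them. In each panel the groups do not overlap: Acsbg1, Cpt1a, Fasn and Scd2 lie higher in infant libraries, Acadl and Insig1 lower, and of these 6 genes Acsbg1, Cpt1a and Acadl passed the edgeR threshold.

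In fatty acid synthesis no gene of 7 tested passed, and the members differed in sign. Elovl5, an elongase of polyunsaturated chains and the class member with the highest level per kb (36.7 RPKM), had 110, 133 and 117 CPM in infant cells and 138, 127 and 152 CPM in adult cells (log2 fold change -0.21 ± 0.13, edgeR adjusted p = 0.430), with overlap. Fads1, the delta-5 desaturase of polyunsaturated fatty acids, had the largest log2 fold change of the class. It had 9.21, 8.71 and 12.1 CPM in infant cells and 18.9, 13.9 and 13.2 CPM in adult cells, and its log2 fold change was -0.62 ± 0.29 (edgeR adjusted p = 0.301). The groups did not overlap, but the closest libraries of the 2 ages were near each other.

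Values of Fasn and Scd2 are given because their groups did not overlap, a choice made after the values were seen. Fasn, which encodes fatty acid synthase, had 178, 171 and 192 CPM in infant cells and 145, 131 and 148 CPM in adult cells (log2 fold change 0.35 ± 0.11, edgeR adjusted p = 0.109). Scd2, a stearoyl-CoA desaturase, had 97.8, 101 and 100 CPM in infant cells and 85.3, 45.5 and 75.6 CPM in adult cells (0.53 ± 0.19, adjusted p = 0.149). The lowest value of Scd2 was that of adult replicate 2, and without this library the log2 fold change was 0.31. Acaca, acetyl-CoA carboxylase, which supplies malonyl-CoA to Fasn, was at -0.51 ± 0.27 (edgeR adjusted p = 0.365), with all infant libraries below all adult ones. Acaca was at -0.31 without adult replicate 2 and at -0.34 without infant replicate 3. Fasn and Acaca, neighbours in the pathway, thus had log2 fold changes of opposite sign, neither past the threshold. The elongases Elovl1 and Elovl6 were at 0.017 ± 0.13 and -0.086 ± 0.25. Scd1 and Fads2 were too low to test: Scd1 stayed at or below 1.42 CPM, and Fads2 had 1 count, in adult replicate 2. The median over the 7 tested was -0.086, and it was 0.0012 without adult replicate 2. The summed level of the class was 534 ± 8.23 CPM in infant cells and 496 ± 32.0 CPM in adult cells. The sums did not overlap, at 526 to 543 CPM in infant libraries and 459 to 516 CPM in adult libraries.

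In sterol synthesis no gene of 17 tested passed in either direction, at a median of -0.17, with 5 positive and 12 negative log2 fold changes. The median stayed between -0.23 and -0.11 with any single library left out. The summed level was 519 ± 39.0 CPM in infant cells and 573 ± 44.3 CPM in adult cells, and the ranges overlapped (478 to 555 CPM in infant libraries and 522 to 603 CPM in adult libraries). No member had all infant libraries above all adult ones, and 2 of the 17 had them below, Fdft1 and Sc5d. Over all genes tested these shares were 11.2% and 11.6%. Idi1, isopentenyl diphosphate isomerase, was too low to test, at 0.628 to 2.42 CPM in infant libraries and 1.07 to 3.41 CPM in adult libraries.

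Along the pathway, the early enzymes Acat2, Hmgcs1, Mvk, Pmvk and Mvd, which lead to the first isoprenoid, were at 0.16, -0.28, 0.084, -0.33 and 0.068 on the log2 scale, with 95% intervals that all held 0, and Hmgcs1 was at -0.12 without infant replicate 1. Fdft1, squalene synthase, which commits the route to sterols, had the largest difference of the class. It had 14.4, 13.8 and 13.0 CPM in infant cells and 22.1, 20.7 and 20.1 CPM in adult cells. The infant libraries lay close together and below all adult ones, but the log2 fold change of -0.61 ± 0.23 did not pass (95% interval -1.10 to -0.11 before adjustment; edgeR adjusted p = 0.190). Fdft1 shares exon bases with Ctsb on the other strand, a gene with 6247 counts over the 6 libraries against 438 for Fdft1. Fdps, which makes the farnesyl diphosphate that Fdft1 uses, was at -0.24 ± 0.28, and Sqle and Lss, which oxidise and close squalene, at -0.11 ± 0.24 and -0.11 ± 0.18.

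Past lanosterol, the next enzymes act while its extra methyl groups are removed. They were at -0.30 ± 0.24 for Cyp51, 0.19 ± 0.34 for Tm7sf2, -0.46 ± 0.18 for Msmo1, -0.17 ± 0.21 for Nsdhl and -0.44 ± 0.38 for Hsd17b7. None passed (the lowest edgeR adjusted p was 0.210, for Msmo1). Single libraries moved several of these values: Hsd17b7 was at -0.17 without adult replicate 2, -0.19 without infant replicate 1 and -0.74 without adult replicate 3. Cyp51 spanned -0.63 to -0.11 with a library left out. Cyp51 shares exon bases with Akap9 on the other strand and Tm7sf2 with Vps51 on the same strand. Ebp, the sterol isomerase and the class member with the highest level per kb (27.5 RPKM), had 55.9, 59.3 and 66.4 CPM in infant cells and 62.1, 66.2 and 71.1 CPM in adult cells (-0.14 ± 0.14, edgeR adjusted p = 0.691). Its groups overlapped. Sc5d and Dhcr7 act in the last steps to cholesterol and differed in sign: Sc5d was at -0.21 ± 0.14 (edgeR adjusted p = 0.492) and Dhcr7 at 0.37 ± 0.19 (edgeR adjusted p = 0.342), or 0.20 without adult replicate 1.

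**Figure D4:**
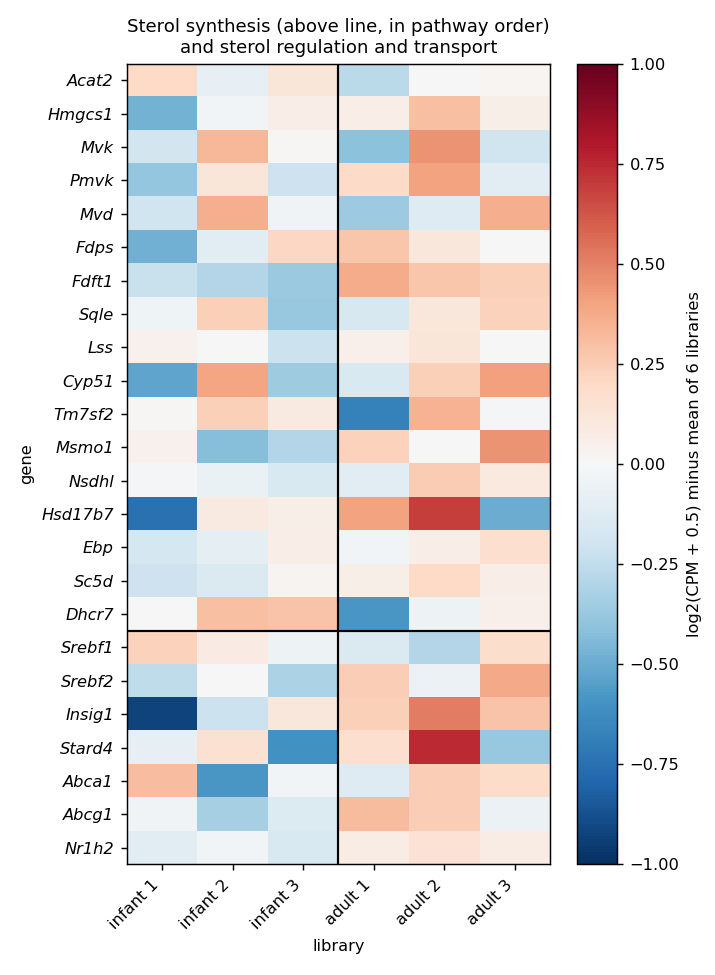
Deviation of each library from the mean of the 6 libraries, on the log2(CPM + 0.5) scale, for the 17 tested genes of sterol synthesis in pathway order (above the line) and the 7 of sterol regulation and transport (below it), with infant libraries at the left. Of the 17 synthesis genes, infant replicate 1 lay above a gene's own mean for 4 and infant replicates 2 and 3 for 9 each, against 8, 14 and 11 for adult replicates 1, 2 and 3.

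The libraries of 1 age differed from each other in the synthesis class. Infant replicate 1 had a median deviation of -0.18 over the 17 genes, whereas infant replicates 2 and 3 had 0.0023 and 0.015. Adult replicates 1, 2 and 3 had -0.028, 0.20 and 0.062, and the highest was that of the library that stood apart.

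The regulators and transporters of sterols, 7 genes that were all tested, had no call and 6 negative log2 fold changes, at a median of -0.34. Without adult replicate 2 the median was -0.17. Their summed level was 645 to 691 CPM in infant libraries and 765 to 791 CPM in adult libraries, so that the sums did not overlap, and it averaged 668 ± 23.4 CPM in infant cells and 780.3 ± 13.9 CPM in adult cells. Insig1, which encodes a protein that holds the sterol sensor complex in the endoplasmic reticulum and is itself a target of that pathway, had the largest difference. It had 19.5, 32.2 and 40.6 CPM in infant cells and 44.4, 53.7 and 45.7 CPM in adult cells. The infant libraries differed among themselves but all lay below the adult ones, and the log2 fold change of -0.64 ± 0.23 did not pass (edgeR adjusted p = 0.162). Without infant replicate 1, its lowest library, Insig1 was at -0.39. Nr1h2, the liver X receptor beta and the class member with the highest level per kb (32.9 RPKM), had 102, 108 and 99.3 CPM in infant cells and 116, 122 and 116 CPM in adult cells. All infant libraries were below all adult ones, by little, and the log2 fold change was -0.19 ± 0.12 (edgeR adjusted p = 0.448).

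Srebf2, the factor that drives sterol synthesis genes, had 128, 153 and 123 CPM in infant cells and 182, 147 and 199 CPM in adult cells. The groups overlapped through adult replicate 2, and the log2 fold change was -0.39 ± 0.14 (edgeR adjusted p = 0.151). Without adult replicate 2 it was -0.50 and passed (adjusted p = 0.0406). Srebf1, whose products act more on fatty acid genes, was at 0.17 ± 0.14 (edgeR adjusted p = 0.589), and it shares exon bases with Rai1 on the other strand. The cholesterol exporters Abca1 and Abcg1, which liver X receptors turn on, were at -0.16 ± 0.24 and -0.34 ± 0.13 (edgeR adjusted p = 0.80 and 0.177). Stard4, a carrier of cholesterol in the cytosol, was at -0.39 ± 0.29 (edgeR adjusted p = 0.554). Without adult replicate 2 Stard4 was at -0.062, without infant replicate 3 at -0.21 and without adult replicate 3 at -0.64.

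The promoters of the members were read as the 250 bases before the start site, from RefSeq on GRCm38.p6, for the 39 members that matched. The windows of Hmgcs1 (chr13:119690101-119690350, plus strand), Acsbg1 (chr9:54661886-54662135, minus strand) and Acadl (chr1:66863310-66863559, minus strand) are printed 5′ to 3′ on the strand of the gene. They show a sterol synthesis gene with CCAAT boxes and the sterol element core beside the gene most raised and the gene most lowered among the members. Capitals mark matches to CCAAT, the box bound by NF-Y, which reads ATTGG on the other strand, to the E-box CACGTG, or to TCACNCCAC, a core of the sterol regulatory element.
Hmgcs1: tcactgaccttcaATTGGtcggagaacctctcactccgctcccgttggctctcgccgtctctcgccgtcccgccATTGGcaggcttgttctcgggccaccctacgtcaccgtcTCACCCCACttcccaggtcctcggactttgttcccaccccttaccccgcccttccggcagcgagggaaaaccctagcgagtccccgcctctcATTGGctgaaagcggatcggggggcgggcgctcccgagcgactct
Acsbg1: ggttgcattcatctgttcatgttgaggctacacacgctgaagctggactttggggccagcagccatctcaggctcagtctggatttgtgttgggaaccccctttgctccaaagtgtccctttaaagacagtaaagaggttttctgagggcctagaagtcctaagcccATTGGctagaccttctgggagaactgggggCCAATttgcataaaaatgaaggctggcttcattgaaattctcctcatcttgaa
Acadl: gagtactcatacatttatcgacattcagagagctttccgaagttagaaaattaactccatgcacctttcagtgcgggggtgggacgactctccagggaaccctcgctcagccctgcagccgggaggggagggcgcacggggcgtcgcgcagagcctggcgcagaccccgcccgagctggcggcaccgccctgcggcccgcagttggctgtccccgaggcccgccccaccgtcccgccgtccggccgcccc
Hmgcs1 has 3 CCAAT boxes and 1 sterol element core, which starts at position -137 from the start site. Acsbg1 has 2 CCAAT boxes, and the Acadl window holds no match to the letters searched.

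A CCAAT box on either strand was present for 14 of 15 sterol synthesis genes with a window (93.3%), for 5 of 6 activation genes (83.3%), for 3 of 5 of sterol regulation and transport, for 3 of 6 of fatty acid synthesis and for 1 of 7 of oxidation (14.3%), against 37.5% of 27025 genes. The sterol element core was found for Hmgcs1 and Acsl1 alone, 2 of 39 members, against 1.22% of all genes. The E-box was found for 6 of 39 members (15.4%), against 6.86% of all genes. Some genes have more than 1 window and were counted once. The genes were chosen by pathway, and the letters searched are a description of sequence. Most sterol synthesis genes had the CCAAT box, and none of that class passed the test between ages. The box was present for 26 of the 39 members (66.7%). Acsbg1 and Cpt1a, higher in infant cells, have the box, and Acadl, lower in infant cells, does not. Other members with a window had groups that did not overlap, without a call. Of those higher in infant libraries, Fasn has the box and Acadvl and Hadha do not. Of those lower, Sc5d, Insig1 and Acsl1 have it and Nr1h2, Acaca and Acadm do not. A link between the box and the differences was not tested.

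A further 104 genes of the same pathways were listed beside the members, and 74 of them were tested. Of these, 2 were higher and 3 lower in infant cells and 69 did not pass, against 1.52% higher and 2.11% lower over all genes tested. Their log2 fold changes were 56.8% negative with a median of -0.079, against 50.3% and -0.0017 over all genes tested. The tested genes came to 4 of sterol synthesis, 20 of sterol regulation and transport, 11 of activation, 12 of fatty acid synthesis and 27 of oxidation. None passed in activation or fatty acid synthesis.

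Acaa2, the mitochondrial thiolase that ends a cycle of oxidation, had 204, 235 and 236 CPM in infant cells and 138, 122 and 144 CPM in adult cells (0.74 ± 0.12, edgeR adjusted p = 0.00245). It was called with any single library left out. Acadsb, the dehydrogenase of short branched chains, was lower in infant cells, at 24.0 ± 1.56 CPM in infant cells and 39.7 ± 4.87 CPM in adult cells (-0.72 ± 0.19, edgeR adjusted p = 0.0499). Acat1, the mitochondrial acetoacetyl-CoA thiolase, was higher at 187 ± 24.0 CPM in infant cells and 133 ± 6.03 CPM in adult cells (0.49 ± 0.12, edgeR adjusted p = 0.0407). Npc2, a carrier of cholesterol in lysosomes, was lower at 631 ± 48.2 CPM in infant cells and 827 ± 48.3 CPM in adult cells (-0.39 ± 0.10, edgeR adjusted p = 0.0445). The call of Acat1 and of Acadsb was lost with each of the 6 libraries left out in turn, and that of Npc2 with 5 of the 6. With no filter on low counts none of these 3 genes passed (edgeR adjusted p = 0.0625 for Acat1, 0.0770 for Acadsb and 0.480 for Npc2). Acadsb also did not pass with DESeq2's size factors or library totals (edgeR adjusted p = 0.0502 and 0.0649). Within oxidation, members and further genes together, the calls thus went in both directions: Cpt1a and Acaa2 were higher and Acadl and Acadsb lower in infant cells. Of these calls, only those of Acaa2 and Acadl held with any single library left out.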

How the data were processed

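Raw counts per gene symbol were deposited by the authors as 1 table of 6 libraries. The aligner was STAR 2.5.4, the counter featureCounts and the build mm10, per the submitters' processing notes. Neither the annotation release nor the handling of reads with several matches is stated there. Per the labels' protocols, polyadenylated RNA was copied from an oligo(dT) primer, amplified by PCR, fragmented with a transposase and read in pairs of 25 bases. This preparation does not mark strand, and it has no molecular identifiers, so that counts include PCR copies.

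Genes were kept by edgeR's filterByExpr (minimum count 10, minimum total 15), leaving 11681 of 52997. The main test was edgeR 4.0.16's quasi-likelihood F test in R 4.3.3, with TMM scaling, all 6 libraries, no covariate and Benjamini-Hochberg adjustment over all genes tested, at 0.05. SE is the log2 fold change divided by the root of F. CPM uses TMM-scaled totals of tested genes. RPKM divides CPM by the union exon length (GENCODE M21, GRCm38), and symbols gave the coordinates. A count of 3, taken as the floor, corresponds to 0.628 to 0.852 CPM per library and covers counting error only. The script was tested on simulated counts.

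The members, their classes, the further pathway genes and the marker lists were chosen with earlier results of these data known. Values in every library are given for members past the threshold and, in each class, for those of highest mean RPKM and largest log2 fold change, and further pathway genes are named where they passed, apart from some items that are not reported here; exceptions are stated in the text. Promoter motifs were searched on both strands of the 250 bases upstream. Alternatives were a stricter filter and none, scaling by DESeq2 size factors or by library totals, the DESeq2 1.42.0 test, a replicate block and leaving out each library.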

Additional observations from a re-analysis of the deposited data

How the results depend on the processing

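Of 515 log2 fold changes of single members under the alternatives, 493 kept their direction and their side of the threshold, 18 changed sign, 3 no longer passed (Cpt1a, in the report) and 1 passed (Srebf2 without adult replicate 2). The members called were 2 higher and 1 lower under each alternative that kept all 6 libraries, and 1 to 2 higher and 1 to 2 lower with a library left out. Over all genes the DESeq2 test called 268 higher, and with a library left out 55 to 217 were higher and 84 to 271 lower; the cause was not tested. With no filter, the median of activation genes was -0.20, which then includes Acsl6, and Cpt2 and Hadhb were at 0.0038 and 0.018. In that setting the median of all genes was -0.84, against -0.0017 in the reported fit and 6.7e-04 and 0.0027 with DESeq2 size factors and library totals. With a library left out, class medians spanned -0.043 to 0.12 for activation, -0.22 to 0.0012 for fatty acid synthesis, -0.063 to 0.19 for oxidation and -0.23 to -0.11 for sterol synthesis. Genes that changed sign spanned -0.081 to 0.38 (Mvk), -0.11 to 0.30 (Mvd), -0.052 to 0.44 (Tm7sf2), -0.28 to 0.030 (Sqle), -0.38 to 0.049 (Abca1), -0.043 to 0.12 (Acsl5), -0.047 to 0.075 (Elovl1), -0.26 to 0.099 (Elovl6), -0.25 to 0.29 (Cpt2) and -0.074 to 0.059 (Hadhb). The replicate block called 2 members higher and 1 lower, and 129 and 197 of all genes. Replicate numbers share no stated litter or day. Deviations of same-numbered libraries correlated at -0.057, -0.0072 and -0.10, against -0.033 to 0.091 for differently numbered libraries of the 2 ages. Such values cannot exclude a shared day or preparation, so whether the numbers pair the mice is not known. The alternatives for the median of sterol regulation and transport, the median of all genes and the 5 further pathway genes past the threshold were added after seeing the data. Fold changes of genes with few counts, such as Acsl3, have wide intervals at this depth.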
